A study of Caenorhabditis elegans with 6 samples.

Results

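The transthyretin-like genes of Caenorhabditis elegans, named ttr, were examined in whole worms carrying the allele atfs-1(et18) and in wild-type N2 worms. The members were chosen by symbol: a gene belongs if a probe set of the Affymetrix C. elegans array is annotated to it alone and its symbol is ttr- followed by a number. This gave 41 probe sets for 40 genes, out of 17118 genes with a probe set of their own, and ttr-24 had 2 probe sets. No measured value selected single members, but the family itself was picked with results of this comparison known, so counts over it, and the p-values of its genes, which come from the fit over the whole table, are a description and support nothing further. A further 3 probe sets, each annotated to 2 ttr genes, are not counted as members, and ttr-33 and ttr-11 were not analysed here. The gene table of assembly WBcel235 lists 59 ttr symbols, so these are not the only family members without a value.

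The arrays came from 3 atfs-1(et18) and 3 wild-type N2 samples, called biological replicates in the labels, which do not say whether they were separate cultures. Both genotypes were bleach-synchronised, fed E. coli OP50 on plates and collected whole as L4 larvae. ATFS-1 is a bZIP transcription factor that turns on the mitochondrial unfolded protein response. The allele et18 is a gain-of-function point mutation in the sequence that targets ATFS-1 to mitochondria, and the arrays show what differs in its presence. Trimmed means were 500.2 on each array, and correlations between arrays of 1 genotype lay between 0.937 and 0.973. In RNA of whole worms, fewer cells of a type and less RNA per cell cannot be told apart.

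Transthyretin-like proteins are small, mostly secreted proteins that form one of the large families expanded in nematodes. They resemble vertebrate transthyretin, a carrier of thyroid hormone and retinol-binding protein, but most have no known ligand. The best understood member is TTR-52, which binds phosphatidylserine exposed on dying cells and bridges it to the engulfment receptor CED-1. Most other members are known only by sequence, so no function is stated for them here.

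In atfs-1(et18) worms 5 ttr genes were lower than in wild-type worms (ttr-1, ttr-8, ttr-32, ttr-31 and ttr-15) and 1 was higher (ttr-37). These are 5 and 1 of the 34 ttr genes tested, or 14.7% and 2.94% of them. Of all 10613 genes tested, 1.37% were lower and 2.69% higher by the same rule (limma, adjusted p under 0.05 over all probe sets tested). The count of 5 includes ttr-1, which was above the filter level described next on wild-type arrays alone. Among genes with an array above that level in both genotypes, 4 of 32 ttr genes (12.5%) were lower, beside 1.23% of all such genes. A gene was tested if 3 or more of the 6 arrays had it above their 40th percentile. That percentile, a stand-in for detection, lay between 62.8 and 80.7 signal units. The median log2 change of the 34 genes was -0.11, beside 0 for all genes tested, and it was 0.02 without wild-type replicate 3. Of the 34 changes 20 were negative and 14 positive, and 23 were smaller than 0.5 in size.

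**Figure D1:**
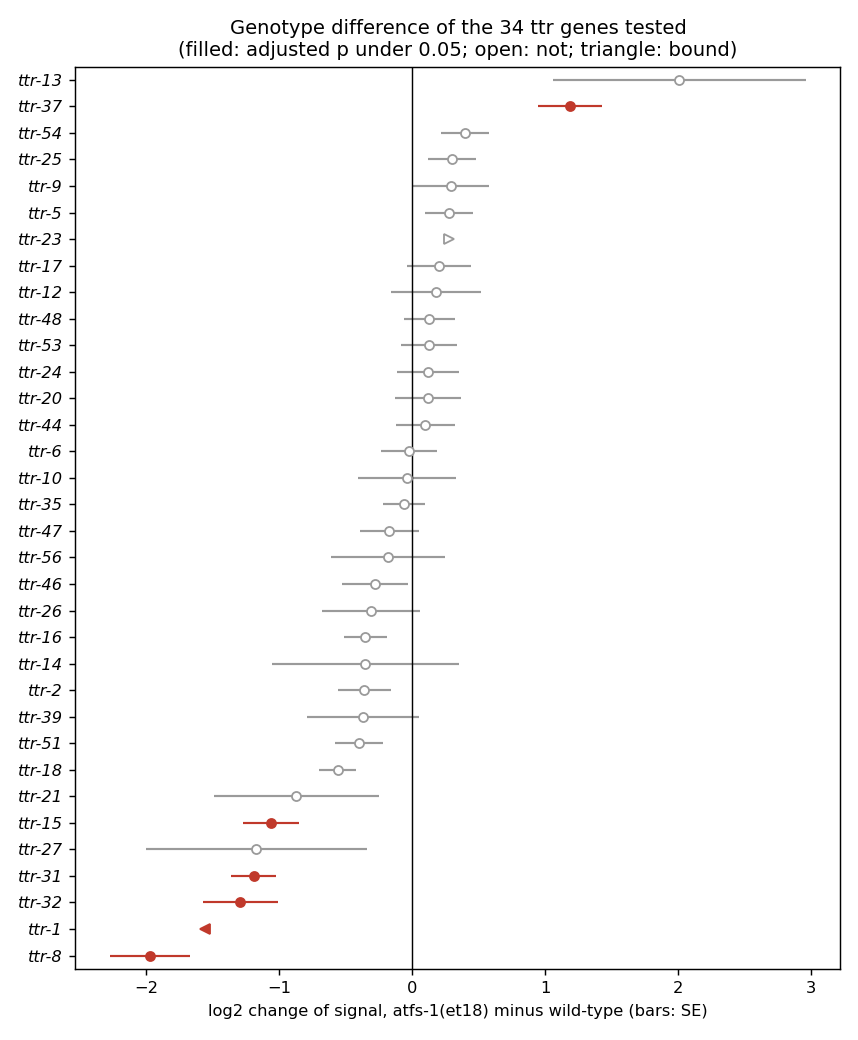
Log2 change of signal, atfs-1(et18) minus wild-type, for each of the 34 ttr genes tested, with the standard error as a bar, in order of the value drawn. Triangles mark ttr-1 and ttr-23, which have only a bound and are drawn at it. Filled symbols passed the threshold: ttr-8, ttr-32, ttr-31 and ttr-15 lie between -1.97 and -1.06, ttr-1 is at its bound below 0, and ttr-37 lies at 1.19.

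The gene ttr-1 (K03H1.6) was above the 40th percentile in wild-type worms only. Its signals were 18.8, 7.16 and 46.7 in atfs-1(et18) worms, against 196, 231 and 175 in wild-type worms. All 3 mutant arrays lay below the 40th percentile and all 3 wild-type arrays above it. The gene therefore passed the filter only through the genotype in which it was high, so its p-values are given as a description. Its fold is given as a bound: ttr-1 fell at least 2.94-fold, with measured means of 24.2 ± 20.3 in atfs-1(et18) and 200.6 ± 28.6 in wild-type worms (SD, n = 3 each, limma adjusted p = 0.0223). The call ended without atfs-1(et18) replicate 1 (limma adjusted p = 0.0893), wild-type replicate 2 (0.121) or wild-type replicate 3 (0.0693), and its adjusted p ran from 0.00303 to 0.121 over 16 alternatives.

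The neighbouring genes ttr-8 (R13A5.6) and ttr-32 (R13A5.3) both fell. For ttr-8 the signals were 105, 54.4 and 107 in atfs-1(et18) worms, against 367, 302 and 333 in wild-type worms. No mutant array came near a wild-type array, although atfs-1(et18) replicate 2 was below the 40th percentile. The change of ttr-8 was -1.97 ± 0.30 on the log2 scale (SE, limma adjusted p = 0.00863), or 3.91-fold lower in the mutant, and it stayed past the threshold in each of 17 alternatives (highest adjusted p = 0.0465).

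For ttr-32 the signals were 70.8, 61.7 and 83.9 in atfs-1(et18) worms, against 194, 192 and 144 in wild-type worms. The arrays did not overlap, and 1 of 3 mutant arrays was above the 40th percentile. The change of ttr-32 was -1.29 ± 0.28 on the log2 scale (limma adjusted p = 0.0379). This call lay close to the threshold: it ended in 8 of 16 alternatives, with adjusted p between 0.0652 and 0.176 without any 1 of the 6 arrays, 0.0797 with no filter and 0.119 with the replicate block (range over all 16, 0.00913 to 0.176).

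The falls of ttr-31 and ttr-15 were measured far above the 40th percentile on all 6 arrays. For ttr-31 (F58A3.5) the signals were 1079, 943 and 1088 in atfs-1(et18) worms, against 2832, 2360.1 and 1951 in wild-type worms. The mutant arrays lay close together at a level below the lowest wild-type array. The change of ttr-31 was -1.19 ± 0.17 on the log2 scale (SE, limma adjusted p = 0.00712), 2.27-fold lower in the mutant, and it held in each of 17 alternatives (highest adjusted p = 0.0460).

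For ttr-15 (T07C4.5) the signals were 4241, 2671 and 4535 in atfs-1(et18) worms, against 8658, 7368 and 7300.1 in wild-type worms. The lowest array was atfs-1(et18) replicate 2, and the genotypes did not overlap. The change of ttr-15 was -1.06 ± 0.21 on the log2 scale (SE, limma adjusted p = 0.0272), 2.09-fold lower in the mutant. Its probe set is marked as able to bind other transcripts, so related RNA may share its signal. The call ended without atfs-1(et18) replicate 1 (limma adjusted p = 0.0848), wild-type replicate 2 (0.102) or wild-type replicate 3 (0.0671) and with no intensity trend (0.0758), out of 16 alternatives with a range of 0.00905 to 0.102.

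The gene that rose was ttr-37 (F21E9.3). Its signals were 500.1, 436 and 371 in atfs-1(et18) worms, against 148, 186 and 249 in wild-type worms. The lowest mutant array exceeded the highest wild-type array, and all 6 were above the 40th percentile. The change of ttr-37 was 1.19 ± 0.24 on the log2 scale (SE, limma adjusted p = 0.0288), 2.28-fold higher in the mutant. The call ended in 8 of 17 alternatives: without atfs-1(et18) replicates 1, 2 or 3 (limma adjusted p = 0.153, 0.0930 and 0.0624) or wild-type replicate 2 (0.118), with median scaling (0.0595), quantile normalization (0.0660), no intensity trend (0.0538) and the replicate block (0.0891). The range over all 17 was 0.00448 to 0.153.

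**Figure D2:**
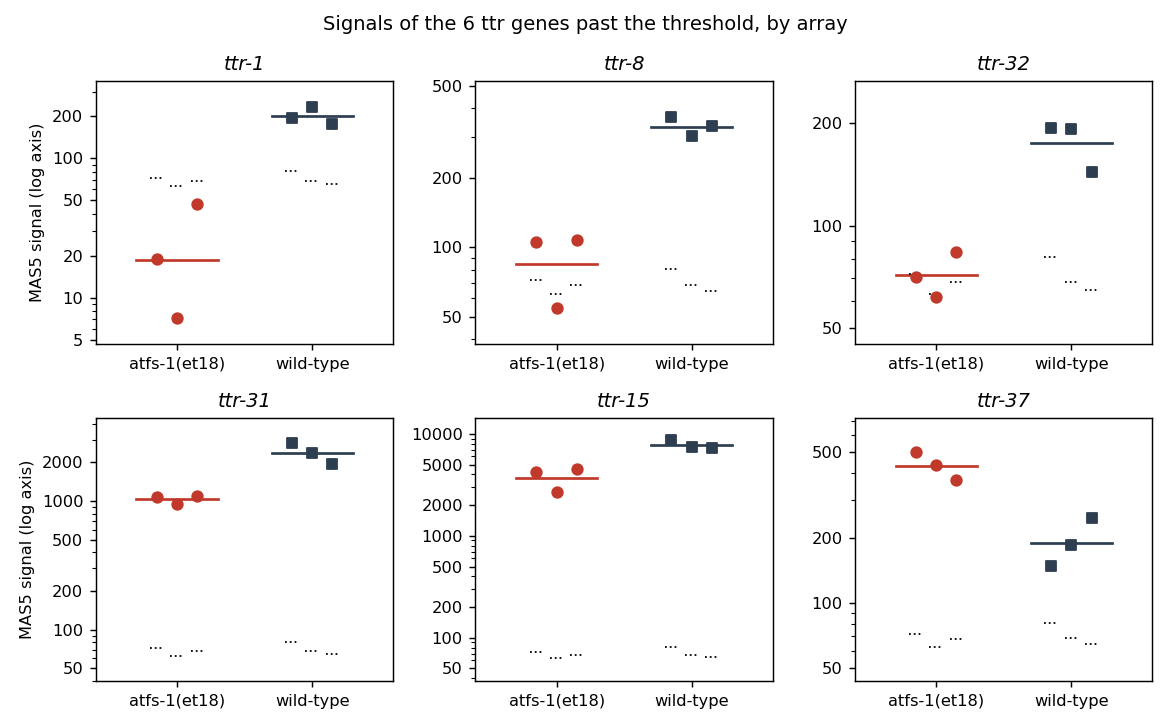
MAS5 signal (log axis) of the 6 ttr genes past the threshold on each of 3 atfs-1(et18) arrays (circles, left) and 3 wild-type arrays (squares, right). Solid lines are means of log2 signals and short dotted lines are the 40th percentile of each array, which all 3 mutant signals of ttr-1 lie below.

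Without 1 array the number of ttr genes called lower ran from 2 to 5. It was 2 without atfs-1(et18) replicate 1, without wild-type replicate 2 or without wild-type replicate 3, and ttr-8 and ttr-31 were called each time. The number called higher was 2 without wild-type replicate 1, 1 without wild-type replicate 3 and 0 without any of the other four arrays.

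The other 28 ttr genes tested did not pass the threshold, with log2 changes between -1.17 and 2.01. The one nearest to it was ttr-18 (B0334.1), whose probe set is of the cross-binding kind, like that of ttr-15. Its signals were 2875, 3310.0 and 3097 in atfs-1(et18) worms, against 4137, 4433 and 5175 in wild-type worms. These arrays did not overlap, and the change was -0.56 ± 0.14 on the log2 scale (SE, limma adjusted p = 0.0731). The gene passed the threshold with array weights (0.0126) and without wild-type replicate 1 (0.0437), in a range of 0.0126 to 0.296 over 16 alternatives.

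Among the genes not called, ttr-13, ttr-27 and ttr-21 had the widest changes, and each had some array below the 40th percentile. For ttr-13 the signals were 74.2, 73.6 and 73.7 in atfs-1(et18) worms, against 92.4, 7.28 and 9.19 in wild-type worms. One wild-type array was thus above all mutant arrays while the other two were far below them, giving a log2 change of 2.01 ± 0.95 (SE, limma adjusted p = 0.327). It passed the threshold with array weights (limma adjusted p = 0.0313) and without wild-type replicate 1 (0.0453), in a range of 0.0313 to 0.650. Without that array, both wild-type arrays left were below the 40th percentile. The gene was then above it through the mutant arrays alone, which lay close over it. No fold is given for that setting, and its p-value is a description. For ttr-27 the signals were 97.3, 16.5 and 162 in atfs-1(et18) worms, against 267, 163 and 67.9 in wild-type worms. The ttr-27 arrays of the genotypes overlapped, with a log2 change of -1.17 ± 0.83 (limma adjusted p = 0.534). For ttr-21, with overlapping arrays as well, the change was -0.87 ± 0.62 (limma adjusted p = 0.535).

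The ttr genes with the highest signals were ttr-16, ttr-48, ttr-46, ttr-15 and ttr-24. Signals of different probe sets are not amounts of RNA, so this order holds for signals alone. The signals of ttr-16 (Y5F2A.1) were 17592, 20169 and 14348 in atfs-1(et18) worms, against 19367, 24807 and 21936 in wild-type worms. Its genotypes overlapped, with a change of -0.35 ± 0.16 on the log2 scale (SE, limma adjusted p = 0.326). For ttr-48 (ZC64.2) the means were 7312 ± 1129 in atfs-1(et18) and 6726 ± 1403 in wild-type worms (SD, n = 3 each). For ttr-46 (T07C12.7) they were 5253 ± 1226 in atfs-1(et18) and 6429 ± 1750.4 in wild-type worms, and for ttr-24 (Y51A2D.9) 5094 ± 807 in atfs-1(et18) and 4799 ± 1475 in wild-type worms. Their log2 changes were 0.13, -0.28 and 0.12, each with an SE between 0.19 and 0.25 (limma adjusted p = 0.796, 0.639 and 0.848). This probe set of ttr-24 is marked as cross-binding. The second one, which is not, had means of 2185 ± 255 in atfs-1(et18) and 2202 ± 456 in wild-type worms (limma adjusted p = 0.993).

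**Figure D3:**
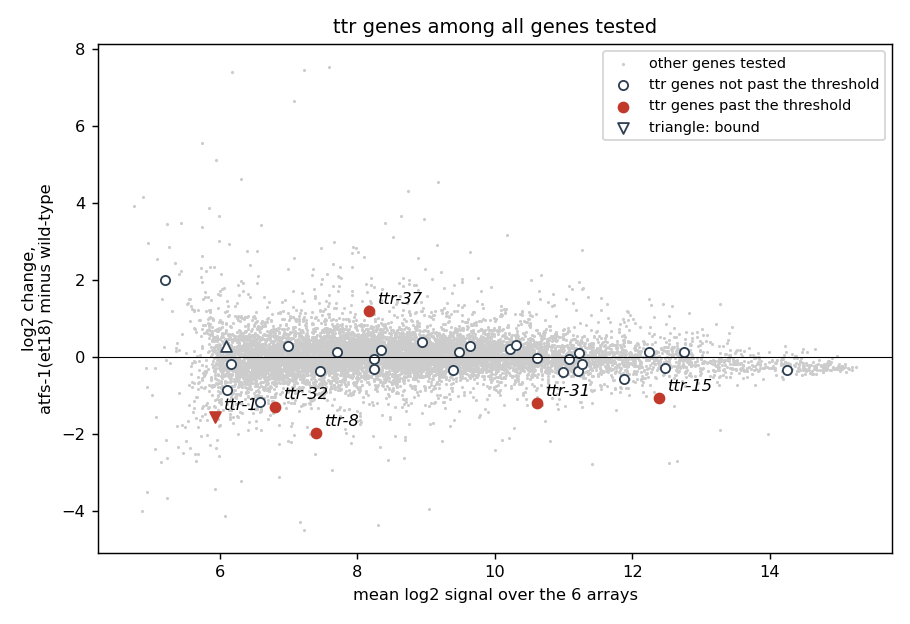
Log2 change, atfs-1(et18) minus wild-type, against the mean log2 signal of each gene tested, with the 34 ttr genes drawn over the other genes in grey. Triangles, ttr-1 among them, are ttr genes drawn at a bound, and grey points are at their measured difference. The ttr genes past the threshold range from dim ttr-1 to bright ttr-15, and the brightest ttr gene, ttr-16, lies at -0.35.

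For 10 of the 34 ttr genes (29.4%) the arrays of the genotypes did not overlap, 7 with the mutant arrays lower and 3 with them higher. Over all genes tested this held for 23.4%. The 10 were the 6 genes called, ttr-18, ttr-51, ttr-54 and ttr-23. Of these, ttr-1 and ttr-23 passed the filter only through the genotype in which they were high, so the 29.4% leans on them. The signals of ttr-51, whose probe set is marked as cross-binding, were 1868, 2093 and 1432 in atfs-1(et18) worms, against 2179, 2214 and 2658 in wild-type worms (change -0.40 ± 0.18, limma adjusted p = 0.300). The signals of ttr-54 were 492, 581 and 621 in atfs-1(et18) worms, against 476, 375 and 430.5 in wild-type worms (change 0.40 ± 0.18, limma adjusted p = 0.290). Both had 1 pair of arrays of opposite genotype close together. The signals of ttr-23 were 79.1, 80.8 and 99.2 in atfs-1(et18) worms, against 76.6, 42.0 and 47.3 in wild-type worms, where no array passed the 40th percentile, so that only a bound of at least 1.21-fold higher can be given (limma adjusted p = 0.414).

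The remaining genes tested, ttr-5, ttr-6, ttr-9, ttr-10, ttr-17, ttr-20, ttr-25, ttr-35, ttr-39, ttr-44, ttr-47, ttr-53 and ttr-56, had overlapping arrays. Their log2 changes lay between -0.37 ± 0.42 for ttr-39 and 0.30 ± 0.18 for ttr-25 (SE), and the lowest limma adjusted p among them was that of ttr-25, 0.456.

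The 6 ttr genes not tested, ttr-19, ttr-22, ttr-28, ttr-29, ttr-50 and ttr-52, had signals between 0.543 and 116. One array of ttr-29, wild-type replicate 1, was above the 40th percentile, and no array of the other five was. The phosphatidylserine-binding bridge gene ttr-52 (F11F1.7) had signals of 19.1, 36.8 and 20.7 in atfs-1(et18) worms, against 57.6, 55.9 and 33.9 in wild-type worms. Its groups overlapped below the 40th percentile, so no fold is given. With no filter, limma's adjusted p was 0.543 for ttr-52 and between 0.543 and 0.881 for these 6 genes.

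The engulfment pathway in which TTR-52 acts was measured through 12 other genes, of which 11 were tested. None passed the limma threshold, and 1 had an unadjusted p under 0.05, with a median log2 change of 0.22. The share of all genes tested at that unadjusted cutoff is not given, so such counts, here and below, are only a description. Their summed signals were 5978 to 6400 in atfs-1(et18) and 5128 to 5938 in wild-type worms. These did not overlap, but the nearest sums lay close together. By gene, only the arrays of ced-7 and psr-1 did not overlap, which held for 23.4% of all genes tested. The genes ced-10 and dyn-1 went the other way (changes -0.32 ± 0.23 and -0.09 ± 0.24). The receptor gene ced-1 had signals of 201, 169 and 243 in atfs-1(et18) worms, against 183, 136 and 211 in wild-type worms, which overlap (change 0.22 ± 0.25, limma adjusted p = 0.727). The phosphatidylserine receptor gene psr-1 was the one with the unadjusted p under 0.05 and is named for that after its values were seen. Its signals were 596, 574 and 578 in atfs-1(et18) worms, against 527, 377 and 341 in wild-type worms (change 0.52 ± 0.20, limma adjusted p = 0.226).

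A pair of genes of the separate group of transthyretin-related hydrolases, enzymes of urate breakdown in other species, was looked up as well. R09H10.3 averaged 4307 ± 515 in atfs-1(et18) and 4613 ± 1295 in wild-type worms (SD, n = 3 each, change -0.07 ± 0.22, limma adjusted p = 0.917). ZK697.8 stayed at or below 27.5 on each array and was not tested.

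Several ttr genes lie beside each other in the gene order of assembly WBcel235. Of the members, 14 formed 6 runs of adjacent protein-coding genes. In the run of ttr-8 and ttr-32 both fell. In that of ttr-2 and ttr-1, ttr-1 fell, while ttr-2 (K03H1.4) had signals of 2652, 1586 and 2172 in atfs-1(et18) worms, against 2898, 2768 and 2389 in wild-type worms (overlapping, change -0.36 ± 0.20, limma adjusted p = 0.416). No member of the other four runs, ttr-16 with ttr-17, ttr-24 with ttr-25 and ttr-26, ttr-27 with ttr-28 and ttr-29, and ttr-54 with ttr-53, was called. Of these, ttr-28 and ttr-29 were not tested.

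**Figure D4:**
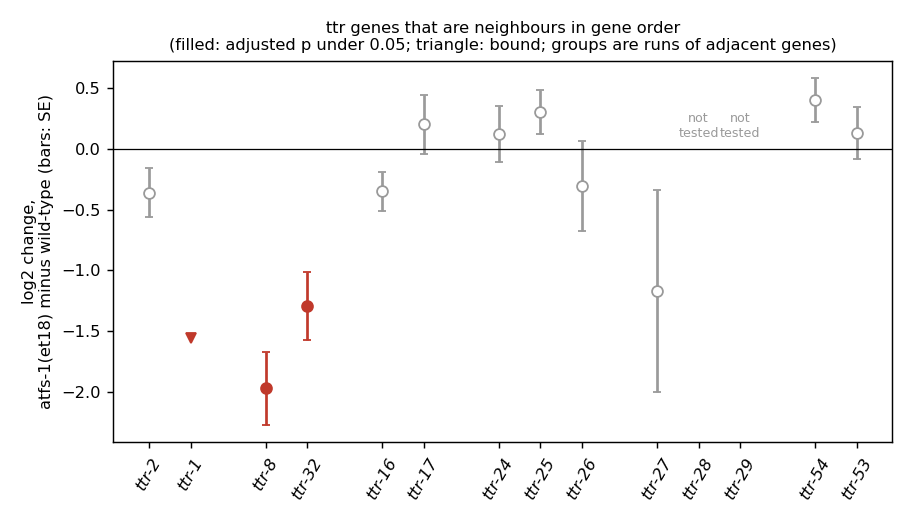
Log2 change, atfs-1(et18) minus wild-type, with the standard error as a bar, for ttr genes that are neighbours in gene order, drawn as 6 runs. Filled symbols passed the threshold: both members of the second run did, and in the first run ttr-1, a triangle at its bound, did while ttr-2 at -0.36 did not.

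Genes of other families around the ttr genes called were looked up after the values of the ttr genes were seen. Within 2 places on either side, 12 such protein-coding genes were tested. Limma called 0 of them, and 1 had an unadjusted p under 0.05, with log2 changes between -0.70 and 0.15. Between ttr-8 and ttr-32 lies no other protein-coding gene. The genes flanking that pair, lgc-12 and R13A5.7, had changes of -0.52 ± 0.35 and -0.11 ± 0.31 (limma adjusted p = 0.511 and 0.901).

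Replicate arrays of a genotype differed, and some ttr genes shared an order of arrays. For 9 of 34 ttr genes (26.5%, beside 12% of all genes tested) replicate 3 was the highest and replicate 2 the lowest of the mutant arrays, and replicate 1 the highest and replicate 3 the lowest of the wild-type arrays. These were ttr-12, ttr-14, ttr-15, ttr-21, ttr-26, ttr-27, ttr-31, ttr-32 and ttr-56. The reverse order held for 5 (14.7%, beside 6.59%), ttr-24, ttr-46, ttr-47, ttr-48 and ttr-51. Most of the ttr genes tested followed neither order. These orders were noticed in the data and carry no test.

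The gene ttr-14 (T05A10.3) showed the first order most plainly among the brighter genes. Its signals were 757, 202 and 1368 in atfs-1(et18) worms, against 1623, 654 and 406 in wild-type worms. The highest mutant array was 6.78 times the lowest, the highest wild-type array was 4.0 times the lowest, and the change between genotypes was -0.35 ± 0.70 on the log2 scale (limma adjusted p = 0.857). The genes ttr-12 and ttr-26 ran the same way, with signals of 416, 215 and 468 and of 310, 174 and 372 in atfs-1(et18) worms, against 443, 275 and 236 and 556, 281 and 245 in wild-type worms. In the reverse order, ttr-46 had signals of 5158, 6525 and 4078 in atfs-1(et18) worms, against 4443, 7095 and 7748 in wild-type worms.

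Marker genes of the tissues in a whole worm were read beside these orders. The 9 pharynx markers tested, out of 10 listed, followed the first order in their sum, with 3594, 832 and 4862 in atfs-1(et18) worms, against 9263, 3908 and 2198 in wild-type worms. Of these 9 markers 5 had that order themselves (myo-1, tnc-2, tni-4, phat-2 and phat-4) and 4 did not (myo-2, pha-4, marg-1 and phat-1). The pharyngeal myosin gene myo-1, the brightest in wild-type worms, had 1096, 122 and 1477 in atfs-1(et18) worms, against 3160.2, 1450.2 and 824 in wild-type worms. Sums of the 10 germline markers, 11842, 10508 and 14189 in atfs-1(et18) worms, against 16993, 10307 and 8226 in wild-type worms, had that order too, as did those of 8 sperm markers, which ran from 69691 to 91754 in atfs-1(et18) and from 85822 to 127606 in wild-type worms. Of the members, 6 of 10 germline and 7 of 8 sperm markers followed it. All sperm markers tested but spe-11 have probe sets marked as cross-binding, so related RNA may share their signals and the 7 may not be separate. Sums of the glia and engulfment lists had this order as well, but in 1 of 6 and 1 of 11 members. No list's sum had the reverse order, which 4 of 10 intestine markers followed. No marker was listed at 0. Limma called 0 of the pharynx and 0 of the germline markers (0 and 0 at an unadjusted p under 0.05), and the part of these tissues in the ttr signals was not tested.

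**Figure D5:**
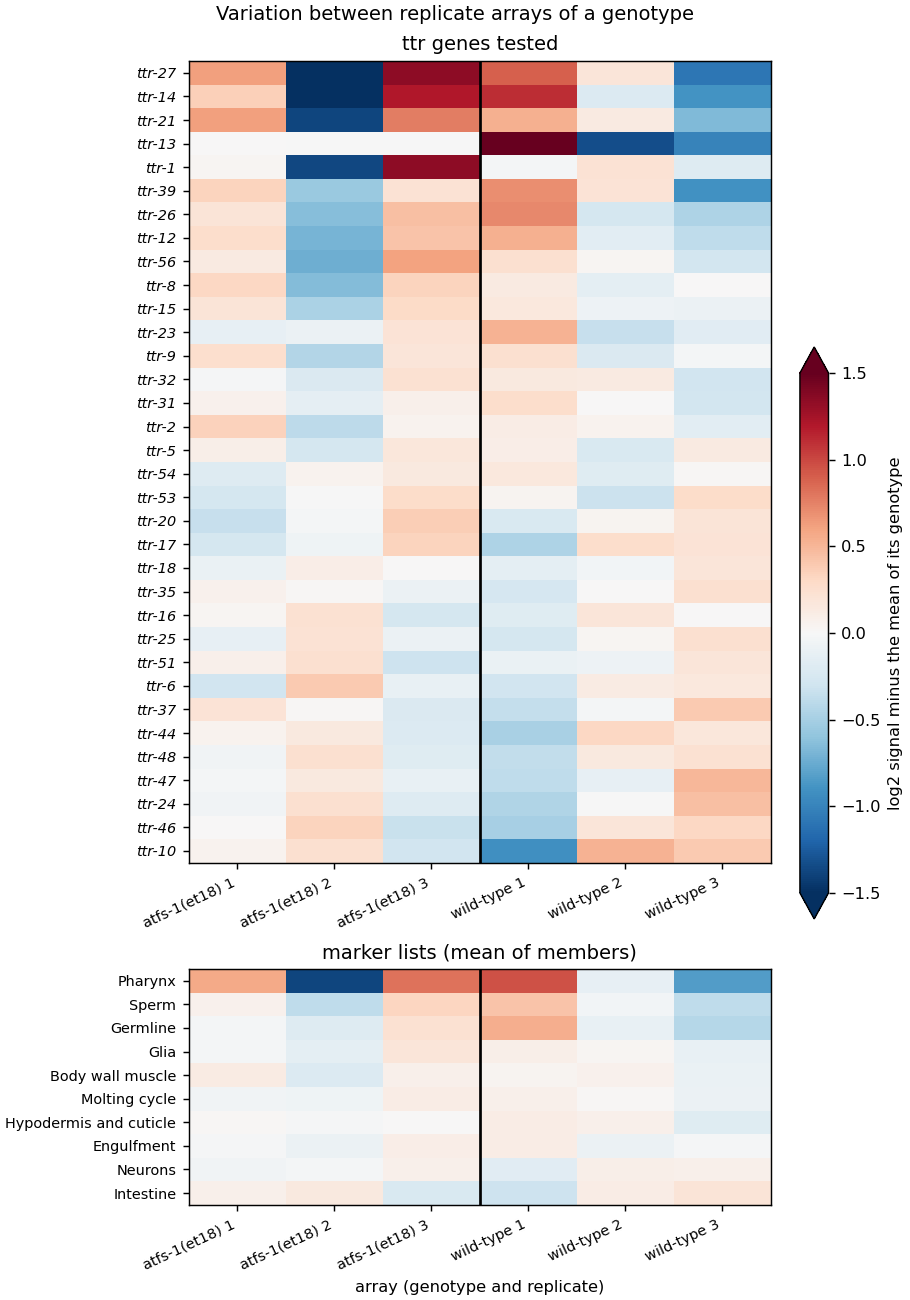
Log2 signal minus the mean of its genotype on each array, for the 34 ttr genes tested (top) and for the mean of each marker list (bottom), with atfs-1(et18) arrays left of wild-type arrays and red for higher. Genes at the top, such as ttr-14, and the pharynx list are high in atfs-1(et18) replicate 3 and wild-type replicate 1, and genes at the bottom, such as ttr-46, are low there.

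Of the 6 ttr genes called, ttr-15, ttr-31 and ttr-32 shared the first order, and atfs-1(et18) replicate 2 was the lowest mutant array for all 5 that fell. Without that array the log2 change of ttr-32 was -1.18 and its call ended (limma adjusted p = 0.112), as did that of ttr-37, while ttr-1, ttr-8, ttr-15 and ttr-31 were still called lower.

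Some marker lists had sums that did not overlap between the genotypes. The 5 yolk protein genes tested, out of 6 listed, all fell, with sums of 1091 to 1686 in atfs-1(et18) and 6925 to 11409 in wild-type worms. Sums of the 10 body wall muscle markers were 53259 to 61439 in atfs-1(et18) and 65071 to 74161 in wild-type worms, and those of the 10 neuron markers 10206 to 10415 in atfs-1(et18) and 10489 to 12006 in wild-type worms. Each of the 10 muscle markers had a negative change, and unc-22 lay nearest the threshold (change -0.74 ± 0.17, limma adjusted p = 0.0501). The nearest neuron sums lay close together. The synaptic gene snb-1, the brightest of that list, was the only neuron marker that went the other way (change 0.27 ± 0.13, limma adjusted p = 0.342). Median log2 changes were -0.35 for the muscle and -0.37 for the neuron markers. Limma called 0 of these muscle and 0 of these neuron markers, against 4 and 3 at an unadjusted p under 0.05. With no share of all genes tested at that cutoff beside them, these unadjusted counts cannot be called high or low. Sums overlapped between genotypes for the intestine, sperm, hypodermis and cuticle, molting cycle and glia lists, where limma called 0 of 10, 0 of 8, 0 of 10, 0 of 10 and 0 of 6 (0, 3, 3, 1 and 1 at an unadjusted p under 0.05). The part of these tissues in the ttr changes was not tested.

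Other families of mostly secreted or binding proteins, grouped by symbol, gave these counts in the same fit. Of 32 hedgehog-related genes 5 were lower and 0 higher, of 96 cuticle collagen genes 3 were lower and 0 higher, and of 65 C-type lectin genes 5 were lower and 5 higher. Of 15 genes of the lbp and far lipid-binding families 0 were lower and 1 higher. Over all genes tested 1.37% were lower and 2.69% higher. Of the 34 ttr genes 5 were lower and 1 higher, so the count of lower genes was like that of the hedgehog-related genes. Their median log2 changes lay between -0.15 and -0.01, beside -0.11 for the ttr genes, and differences between families were not tested.

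The 3 probe sets annotated to 2 ttr genes each were not called. The one for ttr-30 and ttr-59 had signals of 434, 467 and 467 in atfs-1(et18) worms, against 800.4, 629 and 612 in wild-type worms, without overlap (change -0.57 ± 0.17, limma adjusted p = 0.125). The one for ttr-49 and ttr-40 had 227, 180.2 and 277 in atfs-1(et18) worms, against 109, 137 and 151 in wild-type worms, also without overlap (change 0.77 ± 0.25, limma adjusted p = 0.155). The one for ttr-3 and ttr-4 overlapped (change 0.17 ± 0.46, limma adjusted p = 0.895).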

How the data were processed

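RNA of 3 atfs-1(et18) and 3 wild-type samples was hybridised to Affymetrix C. elegans arrays as biotin-labelled cRNA, per the labels' protocols. The authors deposited 1 intensity per probe set and array, on a linear scale, and the submitters' processing notes name MAS5. The sources used here do not give its version, scaling target or detection calls. MAS5 works with background and mismatch subtraction, which leaves low signals noisy, and the number of arrays limits precision.

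Log2 values were taken with no offset. Leaving out 77 control probe sets and those failing the filter left 13792 of 22625. Gene names came from the platform annotation, updated by gene identifier with the WBcel235 gene table (20701 of 20766 matched); a gene was represented by its brightest probe set. No coordinates are given, since the sources name no build.

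The difference atfs-1(et18) minus wild-type was fitted by lmFit and eBayes (trend with mean signal) of limma 3.58.1 under R 4.3.3. Its two-sided p-values were adjusted by Benjamini-Hochberg over the whole set tested. The procedure was run on simulated data drawn independently for each probe set and array. That check cannot give the error rate in these data, where genes share orders of arrays. Exact permutation of 3 against 3 arrays has a smallest p of 0.1 and was not used. A gene below the 40th percentile on all arrays of 1 genotype was given a bound against that percentile. Members and lists were chosen with earlier results of these data known. Genes named are those called, the 5 with the highest signals, the 3 widest changes not called, ttr-52, ttr-18 nearest the threshold, and ced-1; other genes, described by place, overlap or array order, were chosen after their values were seen. Alternatives covered 2 scalings, offsets of 16 and 64, no filter and one at the 60th percentile, no trend, array weights, the replicate block, no cross-binding probe sets, gene means and each array left out. Plots used matplotlib 3.10.9 (Python 3.11.15). Protein and promoter sequences were not used here.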

Additional observations from a re-analysis of the deposited data

How the results depend on the processing

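Over 17 alternatives the calls of ttr-8 and ttr-31 were the ones that held throughout. The number of ttr genes lower, 5 as reported, was 3 with the filter at the 60th percentile, where 25 were tested, and 2 to 5 with 1 array left out. It was 6 with array weights, where ttr-18 was added, and 4 with no filter, no intensity trend or no cross-binding probe sets. The number higher, 1 as reported, was 0 with median scaling, quantile normalization, no intensity trend or the replicate block, 2 with array weights, and 0 to 2 with 1 array left out. Each count of 2 includes ttr-13, which had wild-type arrays below the 40th percentile. The median log2 change of the ttr genes was -0.07 with an offset of 64, -0.23 with no filter, -0.04 with the filter at the 60th percentile, -0.08 with array weights, -0.05 without cross-binding probe sets and -0.12 to 0.02 with 1 array left out; 0.02 was without wild-type replicate 3. With 1 array left out the small change of ttr-24 ran from -0.10 (without wild-type replicate 1) to 0.34 (without wild-type replicate 3), and was 0.00 without atfs-1(et18) replicate 2, and that of ttr-48 ran from -0.05 to 0.24 without those same wild-type arrays. With array weights ttr-48 was at 0.00. The causes were not tested. Same-numbered arrays did not deviate together in all pairs (correlations of 0.171, 0.175 and -0.397). These correlations cannot tell whether same-numbered arrays shared a batch, and the labels name none. With the replicate block 4 ttr genes were lower and 0 higher. It called 267 of all genes, beside 431 without it and 1298 with array weights. Dim genes such as ttr-1, ttr-13 and ttr-32 lie near or below the 40th percentile in at least 1 genotype, where signal over background limits the fold. For ttr-1 and ttr-32 that genotype is atfs-1(et18), and all their wild-type arrays were above it.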
